A study of Mus musculus with 32 samples.

Results

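The mouse globin genes and Bcl11a were examined in ATAC-seq data, which read open chromatin by where the Tn5 transposase inserts sequencing adapters. The members were 8 genes: the adult β-globin genes Hbb-bt and Hbb-bs, the embryonic β-globin genes Hbb-y and Hbb-bh1, the adult α-globin genes Hba-a1 and Hba-a2, the embryonic α-globin gene Hba-x, and Bcl11a. A region of the deposited count tables was taken as a member where its midpoint lay in the mm10 span of such a gene, or within 50 kb of it with no other named protein-coding gene nearer. By this rule 26 of the 99037 regions of the developmental table were members: 20 of Bcl11a, 3 of Hbb-bt and 3 of Hbb-y. In the separate table of cultured cells 46 of 147852 regions were members: 36 of Bcl11a, 4 of Hbb-bt, 4 of Hbb-y and 2 of Hbb-bs. Hbb-bh1, Hba-a1, Hba-a2 and Hba-x had no region in either table.

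The cells were LSK cells of C57BL/6 mice, which are blood stem cells and early progenitors that lack lineage markers and carry Sca-1 and Kit. The developmental groups ran from E12.5 FL through E16.5 FL to BM of the perinatal stage and of 1w, 3w, 4w, 6w and 8w, with E12.5 PL beside them. Each had 3 libraries except for 2 of 3w BM. FL commonly stands for fetal liver and BM for bone marrow, while the labels leave PL unexplained. The cultured groups were E12.5 FL cells held for 2 h either in a medium that E16.5 hepatocytes had conditioned (co-SHI) or in basic medium (SHI), with 3 libraries each. No genotype other than the strain was given. No label says that libraries of the same group stem from different animals, and the p-values therefore measure only how far these samples spread, which may be technical.

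The globin genes encode the chains of haemoglobin, and each cluster is read in developmental order, the embryonic genes in the first red cells and the adult genes afterwards. The β-globin genes share the locus control region, a group of enhancers upstream of Hbb-y, and the α-globin genes are driven by enhancers within the neighbouring gene Nprl3. Bcl11a is a zinc finger repressor that silences the embryonic β-globin genes in mouse red cells of the adult type, and it is also needed in blood stem cells and for lymphoid cells. An enhancer inside the Bcl11a gene is known for its action in red cell precursors. LSK cells precede the red cell precursors, so the globin genes are not yet transcribed at the level of red cells.

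The promoters are shown because the rule left the start sites of nearly all globin genes without a region, while those of Bcl11a and Hbb-bs lay in a region of the cultured table. They are the 250 bases before the start in RefSeq (GRCm38.p6, the assembly of mm10), written in the direction of transcription. Capitals mark matches on either strand to CACCC, the box bound by Klf1-type factors, GATAA, the core of a GATA site, CCAAT, and TGACCA, the motif bound by Bcl11a, which can overlap CCAAT. The adult gene Hbb-bs is shown at chr7:103827929-103828178, the adult gene Hbb-bt at chr7:103813924-103814173 and the embryonic gene Hbb-y at chr7:103853208-103853457, each on the minus strand. Bcl11a is shown at chr11:24080445-24080694 on the plus strand. The last line is the 120-base stretch before the start of Hba-a1 at chr11:32283552-32283671 on the plus strand, which is also found before the start of Hba-a2.
Hbb-bs: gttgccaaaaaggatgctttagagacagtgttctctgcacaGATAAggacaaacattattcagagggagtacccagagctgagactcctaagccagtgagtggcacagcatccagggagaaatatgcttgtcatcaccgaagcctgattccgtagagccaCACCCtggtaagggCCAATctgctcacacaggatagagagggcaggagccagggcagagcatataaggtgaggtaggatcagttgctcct
Hbb-bt: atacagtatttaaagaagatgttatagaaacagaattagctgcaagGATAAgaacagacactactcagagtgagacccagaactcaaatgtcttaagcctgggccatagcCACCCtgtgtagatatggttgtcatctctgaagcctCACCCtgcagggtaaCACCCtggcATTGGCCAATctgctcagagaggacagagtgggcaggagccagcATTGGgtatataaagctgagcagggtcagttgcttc
Hbb-y: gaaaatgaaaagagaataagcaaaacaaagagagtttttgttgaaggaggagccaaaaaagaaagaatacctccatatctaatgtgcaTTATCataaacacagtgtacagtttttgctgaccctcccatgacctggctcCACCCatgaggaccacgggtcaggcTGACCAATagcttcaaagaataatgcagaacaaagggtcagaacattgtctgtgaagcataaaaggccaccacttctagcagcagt
Bcl11a: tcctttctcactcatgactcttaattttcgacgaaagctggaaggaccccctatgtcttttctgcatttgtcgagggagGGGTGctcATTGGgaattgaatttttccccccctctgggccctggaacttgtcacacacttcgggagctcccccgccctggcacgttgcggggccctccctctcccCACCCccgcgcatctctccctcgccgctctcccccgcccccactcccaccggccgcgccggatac
Hba-a1 and Hba-a2: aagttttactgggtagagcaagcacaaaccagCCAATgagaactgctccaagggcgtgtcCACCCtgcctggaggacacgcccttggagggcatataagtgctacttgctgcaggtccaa
The embryonic Hbb-y promoter held 1 match to CACCC, 1 to GATAA, 1 to CCAAT and 1 to TGACCA, which overlapped the match to CCAAT. The adult Hbb-bs promoter held 1 match to each of the first 3 of these motifs. The adult Hbb-bt promoter held 3, 1 and 3 matches to them, and neither held TGACCA. The Bcl11a promoter held 2 matches to CACCC, 1 to CCAAT and none to GATAA or TGACCA. Of 32851 RefSeq promoters of this kind, 52% held CACCC, 22.6% GATAA, 33.8% CCAAT and 11.4% TGACCA, so TGACCA was the least common of the 4. Hba-a1 and Hba-a2 share a run of 297 bases over the 300 bases around their starts, so reads from their promoters cannot be assigned to either copy, and the deposited files do not say how such reads were counted.

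The member regions of the developmental table lay around the genes and none covered a start, although a Bcl11a region at chr11:24080810-24081697 began just past one. Distances are given from the RefSeq start to the midpoint of a region, positive in the direction of transcription. The 3 Hbb-y regions lay -6.1, -7.9 and -8.5 kb from its start, on the side of the locus control region, at chr7:103859052-103859552, chr7:103860842-103861389 and chr7:103861399-103862012. The 3 Hbb-bt regions lay +1.6, +4.8 and +6.8 kb from its start, past the 3′ side of the gene, at chr7:103812099-103812635, chr7:103808853-103809424 and chr7:103806871-103807371, and the first of these overlapped the end of the gene. Of the 20 Bcl11a regions 10 had their midpoint in the gene span (chr11:24076564-24173558), 4 lay before it and 6 past its end. The Bcl11a start used here, just past chr11:24080694, lies inside this span, and so does the -2.9 kb region. Exons were not told from introns or untranslated parts. Per kb of region, the highest mean levels over the 26 libraries were at Bcl11a, with 46.9 CPM per kb at -2.9 kb and 44.4 CPM per kb at +119.8 kb, and the highest β-globin level was 19.9 CPM per kb at the Hbb-y -7.9 kb region.

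Levels are CPM, counts relative to the total of the library, scaled by TMM. Gene and marker sums were scaled apart, to the total over regions assigned to a gene, with TMM factors of their own. They are therefore not the sum of the region CPM. In E12.5 FL 1 the Hbb-y sum was 21.2 CPM, while its 3 regions had 2.94, 9.51 and 5.43 CPM. In E12.5 PL 1 it was 8.21 CPM, with 0.722, 2.65 and 4.81 CPM at the regions, a smaller gap. Total counts over regions ran from 2845113 to 10167340 in the developmental libraries and from 7512258 to 20092146 in the cultured ones. The library 8w BM 3 has a stage label of E12.5 but the title of 8w BM, by which it was grouped. Its peak list matched best the count column of its own name, which relates the list to the column and does not bear on the stage. Regions of the 7 LSK markers summed to 652 ± 58.1 CPM in E12.5 FL, against 417 ± 18.7 CPM for E12.5 PL (mean ± SD over 3 libraries each), and to group means of 604 CPM in E16.5 FL and 685 to 754 CPM in BM. The 14 of 16 erythroid markers with a region summed to 441 ± 28.9 CPM in E12.5 FL, against 322 ± 9.5 CPM for E12.5 PL, with none at Ahsp or Alas2. Markers of hepatocytes (6 of 8 with a region) summed to 139 to 199 CPM in E12.5 FL, against 110 to 155 CPM for E12.5 PL, and those of macrophages (7 of 7) to 199 to 203 CPM in E12.5 FL, against 189 to 278 CPM for E12.5 PL. The part of other cell types in the results below was not tested.

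Most member calls were made between E12.5 FL and E12.5 PL, cells of the same day under different labels of site. In FL, Bcl11a was more accessible at 11 of its 20 regions, Hbb-bt at all 3 regions past the gene and Hbb-y at 1 of 3 regions on the locus control side, and no member was called lower. Called means an adjusted p under 0.05 in the quasi-likelihood test of edgeR, adjusted over all regions of the table. Of the 26 members 15 were higher and 0 lower in E12.5 FL, where 23.1% of all regions were called higher, 26.4% lower and 49.4% in either direction. The median log2 fold change was 1.01 over the members and 0.09 over all 99005 regions tested, and 25 of the 26 members had a positive value. All 26 members passed the filter on low counts. In bulk libraries, fewer cells with an open region and less opening in each cell cannot be told apart.

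Summed per gene, Bcl11a had 250, 266 and 261 CPM in the E12.5 FL libraries, against 103, 108 and 106 CPM in the E12.5 PL libraries. Every FL library was above every PL library, and the log2 fold change was 1.29 (SE 0.09, edgeR adjusted p = 2.76e-14 over all genes, of which 50% were called in either direction). The embryonic Hbb-y summed to 21.2, 31.3 and 27.8 CPM in E12.5 FL, against 8.21, 12.9 and 12.9 CPM in E12.5 PL. Here too the groups did not overlap, with a log2 fold change of 1.23 (SE 0.22, adjusted p = 1.63e-05). The adult Hbb-bt summed to 21.4, 29.0 and 21.7 CPM in E12.5 FL, against 6.52, 4.37 and 8.12 CPM in E12.5 PL, without overlap. Its log2 fold change of 1.92 (SE 0.28, adjusted p = 3.53e-07) was the largest of the 3 genes.

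**Figure D1:**
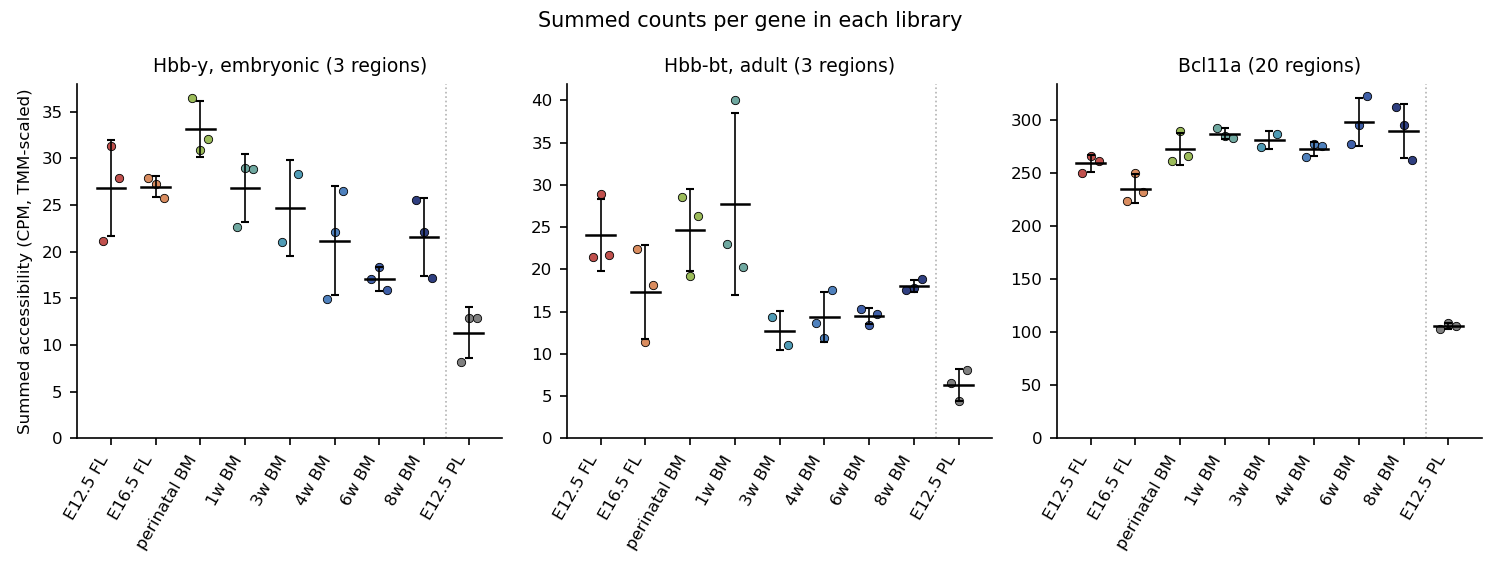
Gene sums in CPM (y axis, on the TMM scale of the gene sums, not of the regions) for Hbb-y, Hbb-bt and Bcl11a. Points are the libraries of each developmental group (x axis), with the group mean and SD. All E12.5 PL libraries lie below those of the other groups for Bcl11a (103 to 108 CPM) and for Hbb-bt (4.37 to 8.12 CPM).

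The largest differences at Bcl11a were past the end of the gene. The region at +119.8 kb (chr11:24200212-24200780) had 21.5, 22.7 and 21.8 CPM in E12.5 FL, against 3.85, 3.60 and 2.78 CPM in E12.5 PL. Each group was narrow and far from the other, and the log2 fold change was the largest of the members, 2.68 (SE 0.27, adjusted p = 1.89e-11). The region at +104.4 kb (chr11:24184844-24185447) had 18.8, 22.2 and 21.3 CPM in E12.5 FL, against 4.33, 6.08 and 3.01 CPM in E12.5 PL, a log2 fold change of 2.21 (SE 0.26, adjusted p = 6.64e-10). Both regions are nearer to Bcl11a than to any other named protein-coding gene, which does not show that they act on it.

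Within and around the gene the differences were smaller. The region just past the start, at +0.6 kb (chr11:24080810-24081697), had 28.1, 28.6 and 34.1 CPM in E12.5 FL, against 12, 10.6 and 15.7 CPM in E12.5 PL. FL was higher in every library, by 1.24 on the log2 scale (SE 0.20, adjusted p = 8.66e-07). The region at +59 kb (chr11:24139379-24139920) had 8.38, 9.37 and 12.51 CPM in E12.5 FL, against 2.65, 3.15 and 5.78 CPM in E12.5 PL, again without overlap and with a log2 fold change of 1.37 (SE 0.33, adjusted p = 0.000666). The region at +51.3 kb (chr11:24131741-24132297) had 4.98, 5.15 and 4.66 CPM in E12.5 FL, against 2.89, 2.70 and 4.16 CPM in E12.5 PL, and was not called (0.60, adjusted p = 0.150). Further called regions inside the gene were at +31.2 kb (1.86, SE 0.41, adjusted p = 0.000217) and +43.6 kb (1.71, SE 0.48, adjusted p = 0.00287). Upstream, those at -15.2 kb (1.30), -18.6 kb (0.98) and -31.3 kb (0.88) were called with adjusted p of 0.00651, 0.036 and 0.013. The -18.6 kb call was lost without E12.5 FL 1, E12.5 FL 3 or E12.5 PL 2 (adjusted p up to 0.210), and the -31.3 kb call without E12.5 FL 3 or E12.5 PL 3 (up to 0.0721).

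The regions near the upstream end of the span were the most open in E12.5 PL and had the smallest log2 fold changes of the called regions. The -2.9 kb region (chr11:24077332-24078260), which had the highest mean of all members, had 38.3, 41.7 and 37.8 CPM in E12.5 FL, against 28.4, 34.0 and 23.8 CPM in E12.5 PL. The groups did not overlap, but the log2 fold change was 0.45 (SE 0.18, adjusted p = 0.0361), and the call was lost under DESeq2 (0.23, adjusted p = 0.268). It was also lost without any of the E12.5 FL libraries or without E12.5 PL 3, with adjusted p of up to 0.143. The -4.4 kb region (chr11:24075863-24076699) had 24.7, 25.1 and 20.9 CPM in E12.5 FL, against 14.7, 17.8 and 14.3 CPM in E12.5 PL, a log2 fold change of 0.59 (SE 0.21, adjusted p = 0.0147) that was also lost under DESeq2 (0.38, adjusted p = 0.105). The 9 Bcl11a regions that were not called ran from -0.07 at +128.5 kb to 1.09 at +69.0 kb.

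**Figure D2:**
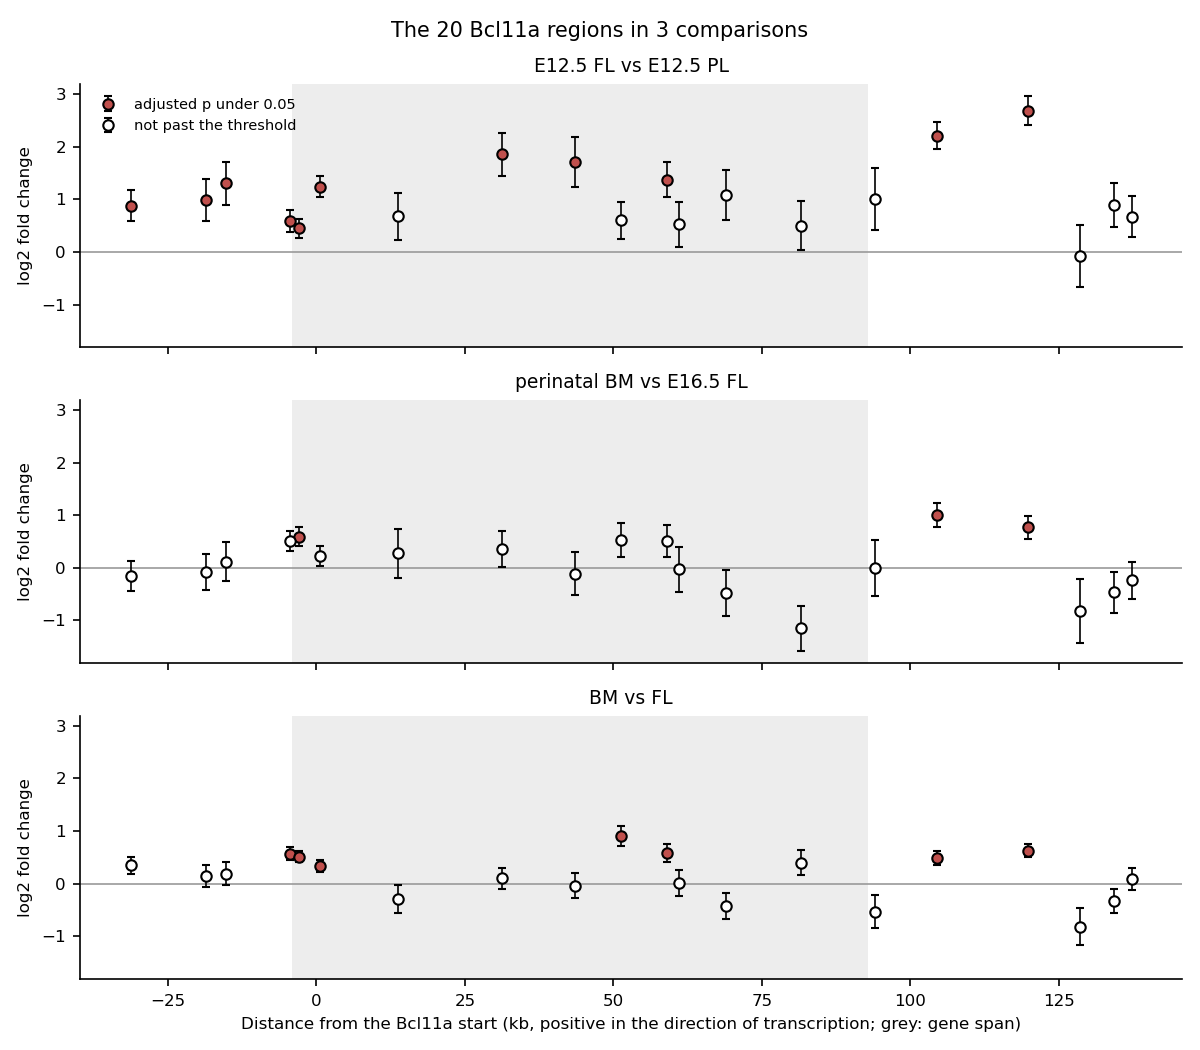
Log2 fold change (y axis, bars of 1 SE) of each of the 20 Bcl11a regions by distance from the start in kb (x axis, grey for the gene span) in 3 comparisons, filled where the adjusted p is under 0.05. E12.5 FL was higher than E12.5 PL at 11 regions, with the largest values at +104.4 and +119.8 kb, while 3 regions passed in perinatal BM over E16.5 FL and 7 in BM over FL.

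At the β-globin genes the clearest difference was past the adult gene Hbb-bt. Its +4.8 kb region had 8.38, 8.66 and 9.08 CPM in E12.5 FL, against 1.44, 1.13 and 2.08 CPM in E12.5 PL. The lowest FL library was far above the highest PL library, and the log2 fold change was 2.47 (SE 0.41, adjusted p = 1.96e-06). Its +1.6 kb region had 5.43, 10.1 and 3.93 CPM in E12.5 FL, against 3.85, 1.35 and 3.24 CPM in E12.5 PL. Here the FL libraries were spread and the lowest was close to the highest PL library, so that the call (1.21, SE 0.39, adjusted p = 0.00907) was lost without E12.5 FL 2 (0.75, adjusted p = 0.157) and without E12.5 PL 2 (0.90, adjusted p = 0.0738). The +6.8 kb region had 4.30, 4.68 and 5.15 CPM in E12.5 FL, against 1.2, 2.03 and 2.55 CPM in E12.5 PL (1.28, SE 0.47, adjusted p = 0.0221), a call lost without E12.5 FL 3 (1.21, adjusted p = 0.0574) or E12.5 PL 1 (1.09, adjusted p = 0.0794).

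On the locus control side of Hbb-y, the -7.9 kb region had 9.51, 13.1 and 12.51 CPM in E12.5 FL, against 2.65, 6.30 and 6.94 CPM in E12.5 PL. All FL libraries were higher, by 1.13 on the log2 scale (SE 0.30, adjusted p = 0.0014), and it was the most accessible β-globin region in either group. The -6.1 kb region had 2.94, 4.45 and 3.93 CPM in E12.5 FL, against 0.722, 2.93 and 1.85 CPM in E12.5 PL, and was not called (1.02, adjusted p = 0.083). The -8.5 kb region had 5.43, 7.73 and 6.87 CPM in E12.5 FL, against 4.81, 4.05 and 3.70 CPM in E12.5 PL, and was not called either (0.67, adjusted p = 0.103).

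**Figure D3:**
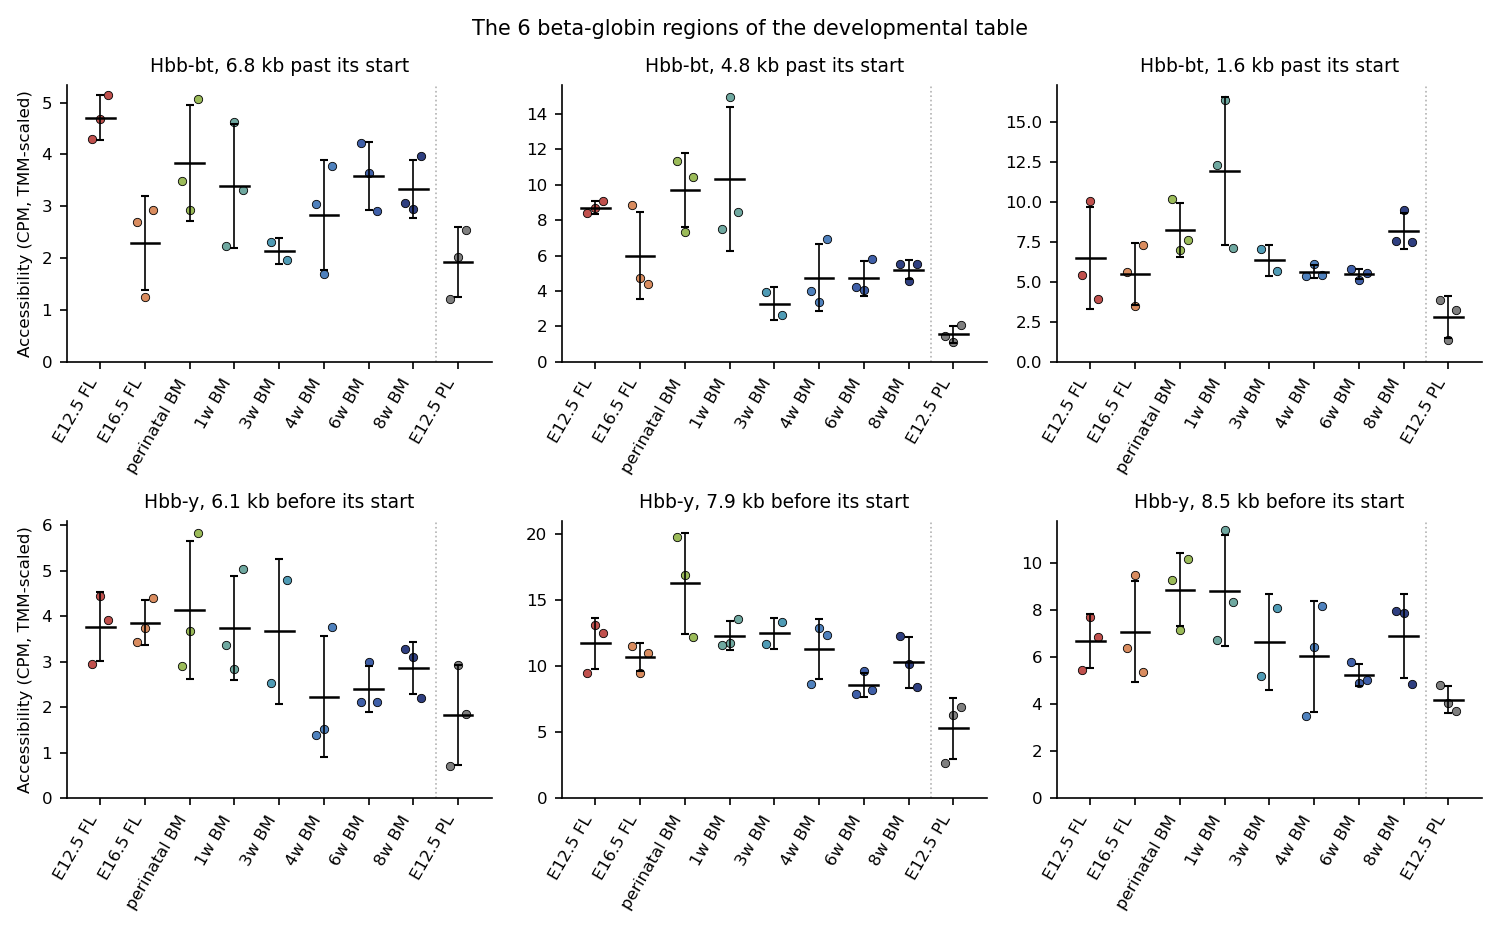
CPM (TMM-scaled, y axis) at the 3 Hbb-bt and the 3 Hbb-y regions in each library (points) of each developmental group (x axis), with the group mean and SD. At the Hbb-bt region 4.8 kb past the start the E12.5 PL libraries lie at 1.13 to 2.08 CPM and those of E12.5 FL at 8.38 to 9.08 CPM.

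How many members passed depended on the scaling between libraries. In E12.5 FL over E12.5 PL the median log2 fold change over the tested regions was 0.09 under TMM, -0.12 under the size factors of DESeq2, 0.38 under total counts and -0.04 under cyclic loess offsets. The number of members called higher was 10, 10, 21 and 9 under DESeq2, its size factors in edgeR, total counts and loess, and none was called lower under any of them. The number over all regions moved too. DESeq2 called 17054 of 99002 regions higher and 31968 lower. Of 99005 regions, 17312, 31407 and 13447 were called higher under its size factors, total counts and loess, and 31575, 18250 and 17863 lower. DESeq2 lost the -31.3, -18.6, -4.4 and -2.9 kb regions of Bcl11a and the +6.8 kb region of Hbb-bt. Loess lost the -31.3, -18.6, -15.2 and +43.6 kb regions of Bcl11a and the +1.6 and +6.8 kb regions of Hbb-bt. The gene sums of Bcl11a, Hbb-y and Hbb-bt were called under every scaling and without any single library of the pair.

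In E16.5 FL over E12.5 FL no member was called. The summed level was 223, 250 and 232 CPM for Bcl11a in E16.5 FL, a log2 fold change of -0.14 over E12.5 FL (adjusted p = 0.71). For Hbb-y it was 0.01 (adjusted p = 0.995) and for Hbb-bt -0.47 (adjusted p = 0.671). Of all regions, 0.00101% were called by edgeR in this comparison, 2 of the 26 members had an unadjusted p under 0.05, and DESeq2 called 0 but gave no adjusted p for 18 of the 26.

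Perinatal BM over E16.5 FL, the comparison across the change of site around birth, called 3 members, all higher and all of Bcl11a, where 6.66% of all regions were called higher, 1.36% lower and 8.03% in either direction. The +104.4 kb region had 19.5, 24.6 and 26.9 CPM in perinatal BM, against 11.3, 11.3 and 13.0 CPM in E16.5 FL. The groups were well apart, with a log2 fold change of 1.00 (SE 0.23, adjusted p = 0.00234), and this call held without any library of the pair. The +119.8 kb region had 28.2, 38.0 and 27.2 CPM in perinatal BM, against 14.7, 23.8 and 16.6 CPM in E16.5 FL (0.77, SE 0.22, adjusted p = 0.016). The -2.9 kb region had 43.6, 54.9 and 38.9 CPM in perinatal BM, against 25.1, 36.3 and 30.3 CPM in E16.5 FL (0.59, SE 0.18, adjusted p = 0.0297). These 2 groups of values did not overlap, but both calls were lost without E16.5 FL 1, E16.5 FL 3 or perinatal BM 2, with adjusted p of 0.0757 to 0.259. Under cyclic loess offsets none of the 26 members was called, where 1793 of all 99005 regions were.

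The β-globin regions were not called in that comparison, although each of the 6 had a positive log2 fold change, from 0.10 to 0.72. The Hbb-y sum was 36.5, 30.9 and 32.1 CPM in perinatal BM, against 27.9, 27.2 and 25.7 CPM in E16.5 FL. Perinatal BM was higher without overlap and had the highest mean of all groups for this gene, but the difference missed the threshold (0.29, adjusted p = 0.33). The Hbb-bt sum was 28.5, 19.2 and 26.3 CPM in perinatal BM, against 22.5, 11.4 and 18.1 CPM in E16.5 FL, with overlap (0.50, adjusted p = 0.166).

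Of pairs of BM groups, only 1w against perinatal BM and 8w against 1w BM were compared, and no member was called in either. In 1w BM over perinatal BM edgeR called 0 of 26 (0.181% of all regions, 1 member with an unadjusted p under 0.05, 0 by DESeq2), and in 8w BM over 1w BM 0 of 26 (1.27% of all regions, 1 member with an unadjusted p under 0.05, 0 by DESeq2). The Hbb-bt sum was 23, 40.1 and 20.2 CPM in 1w BM, the widest spread of any group, and 17.5, 17.8 and 18.9 CPM in 8w BM. The 8w BM libraries were all below those of 1w BM, with a log2 fold change of -0.57 that missed the threshold (adjusted p = 0.273). The Hbb-bt sums of 3w BM (11.1 to 14.4 CPM), 4w BM (11.9 to 17.6 CPM) and 6w BM (13.4 to 15.3 CPM) lay below every perinatal and 1w BM library. The perinatal BM libraries began at 19.2 CPM. This difference was not tested.

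Over the whole span of the series, 8w BM over E12.5 FL, 3 members were called, all higher and all of Bcl11a, where 10.7% of all regions were called higher, 5.7% lower and 16.4% in either direction. The +51.3 kb region had 12.9, 8.51 and 9.05 CPM in 8w BM, against 4.98, 5.15 and 4.66 CPM in E12.5 FL. The 8w BM libraries were all higher (1.03, SE 0.31, adjusted p = 0.0134), and the call was lost without 8w BM 1 (0.83, adjusted p = 0.105). The +81.6 kb region (chr11:24161930-24162586) had 3.48, 6.88 and 9.28 CPM in 8w BM, against 2.72, 2.81 and 2.70 CPM in E12.5 FL (1.24, SE 0.40, adjusted p = 0.0249), a call lost without 8w BM 2 or 3 or any E12.5 FL library. The +119.8 kb region had 27.4, 42.7 and 27.8 CPM in 8w BM, against 21.5, 22.7 and 21.8 CPM in E12.5 FL (0.58, SE 0.21, adjusted p = 0.0481), and 4 of the 6 fits without a library lost it. Under total counts none of the 26 was called, where 6618 of all 99005 regions were called higher and 8779 lower. The comparisons of this series share libraries, so their values are not independent of each other.

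Taking all 17 BM libraries against all 6 FL libraries, with groups weighted equally, 7 members were called higher and 0 lower, where 20% of all regions were called higher, 19.9% lower and 39.9% in either direction. All 7 were regions of Bcl11a, and 0 of the 6 β-globin regions were called, with log2 fold changes of -0.32 to 0.29. In this pooled contrast, site and age cannot be told apart, since all BM groups are older than all FL groups.

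The +51.3 kb region, inside the gene, had 4.36, 9.26 and 12.9 CPM as the lowest, median and highest of the BM libraries, against 3.93, 5.07 and 5.50 CPM of the FL libraries. All BM libraries except perinatal BM 1 were above all FL libraries, and the log2 fold change was 0.91 (SE 0.19, adjusted p = 0.000113). The +59 kb region had 7.11, 13.5 and 17.5 CPM in BM, against 4.16, 8.87 and 12.51 CPM in FL (0.58, SE 0.18, adjusted p = 0.0075), with overlap and with the call lost without E16.5 FL 3 (0.44, adjusted p = 0.0584). The +119.8 kb region had 24.6, 27.8 and 42.7 CPM in BM, against 14.7, 21.7 and 23.8 CPM in FL. Every BM library was above every FL library there, by 0.62 on the log2 scale (SE 0.13, adjusted p = 8.23e-05). The +104.4 kb region had 17.9, 22.0 and 29.5 CPM in BM, against 11.3, 15.9 and 22.2 CPM in FL (0.49, SE 0.13, adjusted p = 0.00227), with overlap.

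The regions around the upstream end and the start moved the same way. The -4.4 kb region had 23.9, 33.8 and 42.1 CPM in BM, against 17.7, 23.5 and 25.3 CPM in FL (0.57, SE 0.12, adjusted p = 7.88e-05). The -2.9 kb region had 38.9, 49.4 and 64.6 CPM in BM, against 25.1, 37.0 and 41.7 CPM in FL (0.51, SE 0.11, adjusted p = 0.000105). The +0.6 kb region had 26.1, 34.1 and 41.3 CPM in BM, against 23.2, 27.2 and 34.1 CPM in FL (0.33, SE 0.11, adjusted p = 0.0115). The ranges of these 3 regions overlapped between BM and FL.

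The BM over FL calls at Bcl11a rested on the scaling. Under cyclic loess offsets, 1 of the 26 members was called, the +51.3 kb region (0.81, adjusted p = 0.00103), while the -2.9 and +0.6 kb regions had log2 fold changes of -0.01 and -0.12. Under total counts 4 members were called higher and 5 lower, and under DESeq2 7 were higher and 1 lower. Of all 99005 regions, 12322 were called higher and 32304 lower under total counts, and 9791 higher and 10458 lower under loess. Of 99002 regions, DESeq2 called 16826 higher and 24450 lower. The median of all regions in this contrast was -0.11 under TMM, -0.32 under total counts, -0.19 under the size factors of DESeq2 and -0.04 under loess. The Bcl11a sum was higher by 0.20 on the log2 scale under TMM (SE 0.05, adjusted p = 0.00152, where 54.9% of genes were called in either direction) and changed direction under loess (-0.03, adjusted p = 0.691).

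By group mean, the Bcl11a sum was highest in 6w BM (298 ± 22.7 CPM), followed by 8w BM (290 ± 25.4), 1w BM (287 ± 5.2), 3w BM (281 ± 8.8, n = 2), 4w BM (273 ± 6.7), perinatal BM (272 ± 15.2), E12.5 FL (259 ± 8.0), E16.5 FL (235 ± 13.6) and E12.5 PL (106 ± 2.8, n = 3 unless given). Neighbours in this order overlapped in their ranges from 6w BM to E12.5 FL, and E16.5 FL and E12.5 PL each lay below the group before them. For Hbb-bt the order began with 1w BM (27.8 ± 10.8 CPM), perinatal BM (24.7 ± 4.9) and E12.5 FL (24.0 ± 4.3), which overlapped. Next came 8w BM (18.1 ± 0.7), below all E12.5 FL libraries, E16.5 FL (17.3 ± 5.6), which reached into the range of E12.5 FL, 6w BM (14.5 ± 1.0), 4w BM (14.4 ± 2.9) and 3w BM (12.7 ± 2.3), and then E12.5 PL (6.3 ± 1.9), apart from the rest. For Hbb-y perinatal BM came first (33.1 ± 3.0 CPM), apart from the next group, E16.5 FL, but overlapping E12.5 FL. E16.5 FL, 1w BM and E12.5 FL had nearly the same mean (26.9 ± 1.1, 26.8 ± 3.7 and 26.8 ± 5.1), and 6w BM (17.1 ± 1.3) and E12.5 PL (11.3 ± 2.7) came last. These orders and overlaps hold on the scale of the gene sums and can differ on that of the regions. The Hbb-y sum was 30.9 CPM in perinatal BM 2 and 31.3 CPM in E12.5 FL 2. At its regions they had 3.67, 16.9 and 7.16 CPM, against 4.45, 13.1 and 7.73 CPM, which add up to more in perinatal BM 2.

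A test over any of the 9 groups called 16 of the 26 members, 13 of Bcl11a, 2 of Hbb-bt and 1 of Hbb-y, where 64.4% of all regions were called. Without the E12.5 PL libraries it called 9. The smallest adjusted p were those of the +119.8 kb (1.47e-14), +104.4 kb (3.95e-11) and +0.6 kb (1.67e-08) regions of Bcl11a.

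The Hbb-y share, the part of the β-globin counts that fell on the Hbb-y regions, sets both sides of the cluster against each other within a library, and no scaling touches it. These regions lie on the side of the locus control region, which the β-globin genes share, so the share is no reading of the embryonic gene itself. It was 52.6% ± 3.3 in E12.5 FL and 63.9% ± 9.7 in E12.5 PL (SD, n = 3 each), a difference of -11.3 percentage points (two-sided exact permutation p = 0.2, where 0.1 is the smallest that 3 against 3 allows). The difference was no larger than that among the PL libraries. Across the later groups it was 61.5% ± 8.0 in E16.5 FL, 57.6% ± 3.6 in perinatal BM, 50.1% ± 8.4 in 1w BM and 54.1% ± 5.9 in 8w BM. With 3 against 3 libraries none of the tests between neighbouring stages could pass 0.05: the exact permutation p was 0.2 between E16.5 FL and E12.5 FL, 0.6 between perinatal BM and E16.5 FL, 0.3 between 1w and perinatal BM and 0.6 between 8w and 1w BM. Over all 17 BM libraries it was 56.2%, against 57.1% in the 6 FL libraries (permutation p = 0.796). Adjusted over the 8 comparisons of this share, p was 0.6 to 0.8. The share rests on few counts, 61 to 456 per developmental library, and the Wilson 95% interval of E12.5 PL 1 (55.7%, 34 of 61 counts) ran from 43.3% to 67.5%. These intervals cover counting error only. With no region at Hba-x, Hba-a1 or Hba-a2, the same share could not be formed for the α-globin genes.

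The deposited peak lists, called by the authors per library, come from the same libraries as the counts and are no independent reading of the regions. A peak was present at 22 of the 26 regions in at least 1 BM library, at 10 in at least 1 FL library and at 3 in at least 1 E12.5 PL library, and 4 regions had none. The share of all regions with a peak was not counted, so these numbers do not set the members apart from other regions. At +119.8 kb of Bcl11a a peak was called in 17 of 17 BM, 6 of 6 FL and 0 of 3 E12.5 PL libraries, with the authors' fold enrichment at 4.4 to 15.9. At +104.4 kb the numbers were 17, 5 and 0. The -2.9 kb region differed from these: 16 BM libraries, 1 FL library and 2 E12.5 PL libraries had a peak. The +59, +51.3 and +0.6 kb regions had a peak in 15, 10 and 12 BM libraries and in none of FL or E12.5 PL. Of the β-globin regions, the Hbb-y -7.9 kb region was the most often called, in 17 BM, 5 FL and 2 E12.5 PL libraries, and the Hbb-bt +1.6 kb region was called in 12 BM libraries and in no other. The number of peaks per list differed too: it was 24038 to 50806 in BM, 9361 to 23478 in FL and 24968 to 37324 in E12.5 PL. Its part in these counts was not tested. The number of libraries also differed, at 17 of BM, 6 of FL and 3 of E12.5 PL. A count of regions with a peak in at least 1 library can only grow with more libraries.

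**Figure D4:**
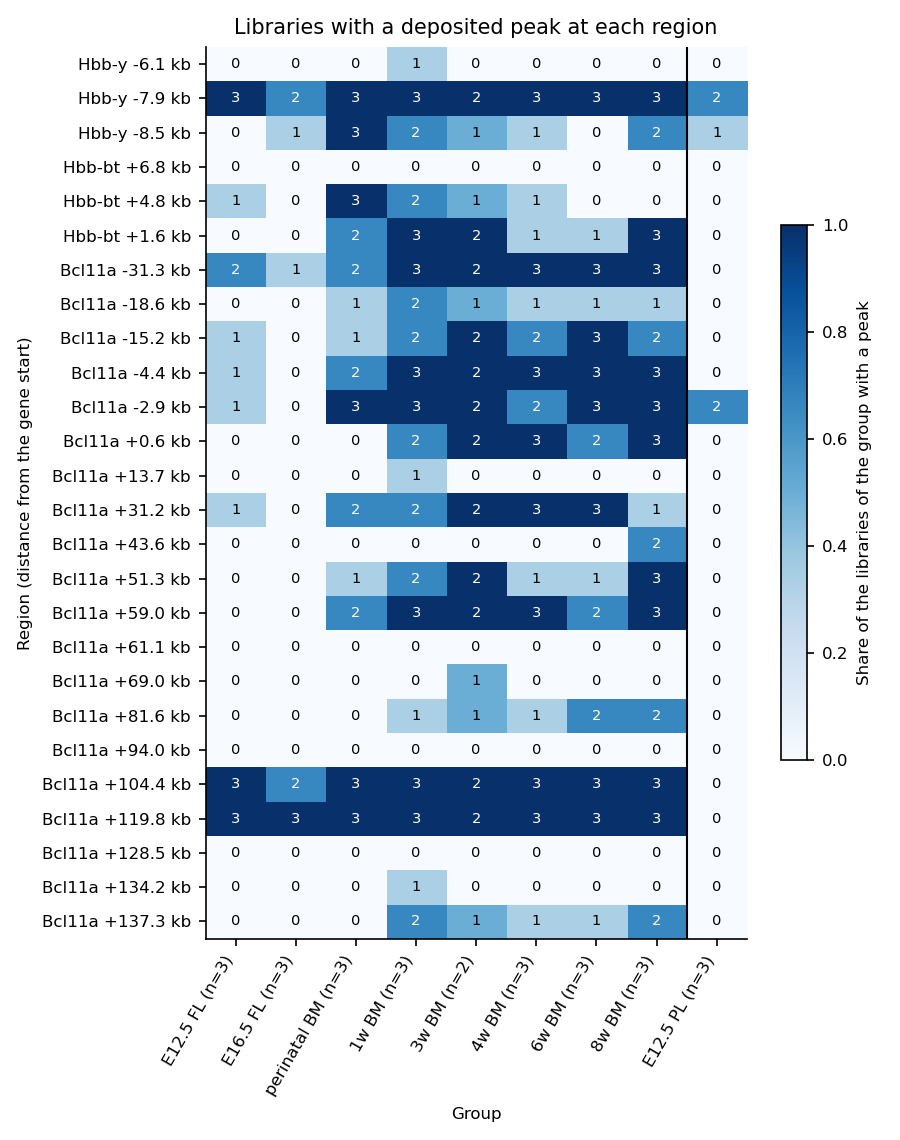
Number of libraries (printed) and share of the libraries (colour) of each developmental group (x axis) with a deposited peak at each of the 26 member regions (y axis, distance from the gene start in kb). The Bcl11a regions at +104.4 and +119.8 kb have peaks in all groups but E12.5 PL, and the Hbb-y -7.9 kb region in all groups.

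At the genes themselves, no peak lay within the span or 1 kb either side of Hbb-y, Hbb-bh1, Hba-x, Hba-a1 or Hba-a2 in any of the 32 lists. Over the 300 bases from 250 before to 50 after the start, no list had a peak at Hbb-bt, Hbb-y or Bcl11a, and only the 3 SHI lists had a peak at Hbb-bs. A list holds only what passed its caller's threshold, so the absence of a peak does not show closed chromatin.

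The nearest readings to the α-globin genes were regions assigned to their neighbours. Of the developmental regions, 20 lay within 50 kb of an α-globin gene but nearer Nprl3, Hbq1b, Hbq1a or Sh3pxd2b, and in E12.5 FL over E12.5 PL 2 of them were called higher and 6 lower, where 23.1% of all regions were called higher and 26.4% lower. The region at chr11:32345499-32345999, nearest Sh3pxd2b, had 4.08, 0.937 and 2.70 CPM in E12.5 FL, against 31.0, 34.0 and 25.5 CPM in E12.5 PL (-3.53, adjusted p = 2.27e-09). In the body of Nprl3, where the α-globin enhancers lie, the region at chr11:32262797-32263297 had 3.17, 1.17 and 1.47 CPM in E12.5 FL, against 9.14, 27.7 and 14.8 CPM in E12.5 PL (-3.13, adjusted p = 4.55e-06). Both regions were open in E12.5 PL and had 4.18 CPM or less in every library of the other groups. Another region in Nprl3, at chr11:32250845-32251345, had 1.81, 1.64 and 1.47 CPM in E12.5 FL, against 8.42, 14.2 and 10.9 CPM in E12.5 PL. Whether any of these regions is an α-globin enhancer was not tested. In the same gene, the region at chr11:32265015-32265553 went the other way, with 9.74, 6.32 and 11 CPM in E12.5 FL, against 2.89, 4.50 and 3.47 CPM in E12.5 PL (1.31, adjusted p = 0.000958), a call lost under loess, which called 0 higher and 5 lower of the 20. Of all 99005 regions, loess called 13447 higher and 17863 lower. At the β-globin cluster, 1 region within 50 kb was nearer another gene, at chr7:103792924-103793480 beside the odorant receptor gene Olfr67, past the adult end of the cluster. It had 5.43, 8.20 and 3.93 CPM in E12.5 FL, against 0.481, 0.675 and 1.85 CPM in E12.5 PL (2.51, adjusted p = 1.58e-05), and so moved as the Hbb-bt regions did.

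Other genes of the globin programme were read from a list of 38 regulators, of which 37 had regions and were tested on gene sums. In E12.5 FL over E12.5 PL 10 were called higher and 10 lower, where 25.2% of all genes were called higher, 24.8% lower and 50% in either direction. The genes called higher were Ikzf1 (Ikaros, 1.56 on the log2 scale), Nfe2 (1.38), which binds the locus control region, Lyl1 (1.21), Gfi1b (1.15), Lmo2 (1.07), Gata1 (0.80), Nfix (0.71), Myb (0.61), Tal1 (0.49) and Nfia (0.25). Those called lower were the demethylase Kdm1a (-0.76), the methyl-DNA binder Mbd2 (-0.71), the orphan receptor Nr2c1 (-0.68), the DNA methyltransferase Dnmt1 (-0.60) and the NuRD subunit Gatad2a (-0.35). Gata2 (-0.58), Hic2 (-0.45), Nprl3 (-0.37), Bach1 (-0.33) and Klf3 (-0.27) were also lower. Of these 20 calls 16, 8 in each direction, were made under all 4 other scalings, and none changed sign.

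In E16.5 over E12.5 FL edgeR called 0 regulators (0% of genes, 2 regulators with an unadjusted p under 0.05, 0 by DESeq2). In 1w over perinatal BM it also called 0 (0.235% of genes, 3 with an unadjusted p under 0.05, 0 by DESeq2). Perinatal BM over E16.5 FL called 3 higher and 2 lower (11% of genes higher, 6.03% lower and 17.1% in all), led by Igf2bp1 (-1.26), an RNA-binding protein of fetal cells. In 8w over 1w BM the only call was Lin28b (-1.15, with 0.765% of genes called higher, 0.638% lower and 1.4% in all), a fetal RNA-binding protein known to hold down BCL11A in human cells. In 8w BM over E12.5 FL 8 were higher and 5 lower (15.8% of genes higher, 14.1% lower and 29.9% in all), with Igf2bp1 at -2.30 and Lin28b at -1.57. In all BM over all FL libraries 11 were higher and 6 lower (27.5% of genes higher, 27.4% lower and 54.9% in all), again with Igf2bp1 (-2.05) and Lin28b (-0.81) among the lower, and 12 of these 17 calls were made under all other scalings.

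The genes whose sums were most like those of the members over the 26 libraries, by Pearson r of log2 CPM, are a description. For Bcl11a they were Plcg2 (r = 0.99), Kcnmb1 (0.98) and Flt3 (0.98), for Hbb-bt Vav3 (0.92), Dennd2d (0.91) and Ms4a6b (0.89), and for Hbb-y Ccr9 (0.91), Ppt1 (0.90) and Steap4 (0.90). Over the 23 libraries without E12.5 PL these r were 0.72 to 0.84. The points share libraries and depth, and the E12.5 PL libraries stand apart for all 3 members.

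The cultured libraries need a remark on their labels first. Each of the 26 developmental peak lists matched best the count column of its own name (r = 0.28 to 0.83), but 0 of the 6 cultured lists did: each matched best a column of the other medium (r = 0.35 to 0.62). Which of the names are right cannot be told apart from these files, so the groups are called the columns labelled co-SHI and SHI, and the direction of each difference rests on the column names. LSK markers summed to 769.5 to 786 CPM in the columns labelled co-SHI, each above the 680 to 769 CPM in those labelled SHI, and the part of this in the results below was not tested. Erythroid markers overlapped, at 573 ± 57.6 CPM in the columns labelled co-SHI and 564 ± 10.0 CPM in those labelled SHI (SD, n = 3 each).

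In these columns 4 of 46 members were called, 2 higher and 2 lower, where 0.228% of all regions were called higher, 0.332% lower and 0.56% in either direction. The region at chr7:103827711-103828250 holds the Hbb-bs promoter printed above, with 1 match to each of the first 3 motifs. It had 2.41, 2.87 and 6.51 CPM (46, 58 and 90 counts) in the columns labelled co-SHI, against 1.73, 0.93 and 0.603 CPM (20, 7 and 7 counts) in those labelled SHI. The columns labelled co-SHI were all higher, with 1 of them far above the others, and the log2 fold change was 1.79 (SE 0.39, adjusted p = 0.0228). DESeq2 gave no adjusted p for this region (1.82, unadjusted p = 0.000118). The call was lost without the SHI column 2 (1.71, adjusted p = 0.122) or 3 (1.46, adjusted p = 0.115), or without the co-SHI column 3 (1.25, adjusted p = 0.092). The Hbb-bs sum went the same way, with 4.40, 5.54 and 8.61 CPM in the columns labelled co-SHI, against 3.34, 3.12 and 2.39 CPM in those labelled SHI (1.05, SE 0.29, adjusted p = 0.0347, where 6.98% of genes were called), and 5 of the 6 fits without a library lost this call. The 3 peak lists with a peak at the Hbb-bs start were those labelled SHI.

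Upstream of the embryonic gene Hbb-y, at -12.7 kb (chr7:103865626-103866126), the columns labelled co-SHI had 3.45, 2.47 and 4.91 CPM, against 1.30, 1.99 and 0.861 CPM in those labelled SHI. They did not overlap (1.42, SE 0.35, adjusted p = 0.0445), and 5 of the 6 fits without a library lost the call. DESeq2 gave no adjusted p here either (1.41, unadjusted p = 0.000632), while it called both Bcl11a regions below. The 3 regions nearer Hbb-y, at the places open in the developmental series, had log2 fold changes of -0.08 to 0.16 and were not called. The sums of Hbb-y (0.07, adjusted p = 0.642), Hbb-bt (0.22, adjusted p = 0.237) and Bcl11a (-0.09, adjusted p = 0.345) were not called either.

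Inside Bcl11a, 2 regions were lower in the columns labelled co-SHI. The +31.3 kb region (chr11:24111713-24112261) had 7.01, 6.93 and 8.24 CPM in them, against 13.9, 11.3 and 13.7 CPM in those labelled SHI (-0.82, SE 0.17, adjusted p = 0.0187). The +51.3 kb region (chr11:24131764-24132314) had 7.95, 7.72 and 8.75 CPM in the columns labelled co-SHI, against 11.3, 15.7 and 17.6 CPM in those labelled SHI (-0.87, SE 0.18, adjusted p = 0.0126). In both the groups were apart, and each call was lost in 4 of the 6 fits without a library. The +51.3 kb region is the same place that was higher in BM than in FL in the developmental series. The Hbb-y share of the β-globin counts was 48.9% ± 4.7 in the columns labelled co-SHI and 53.0% ± 2.2 in those labelled SHI (exact permutation p = 0.3). Without a library the number of members called ran from 0 to 2. Of the regulators, Tal1 (0.25) and Ikzf1 (0.22) were called higher in the columns labelled co-SHI (4.58% of genes higher, 2.4% lower and 6.98% in all), and both calls were made under all other scalings.

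**Figure D5:**
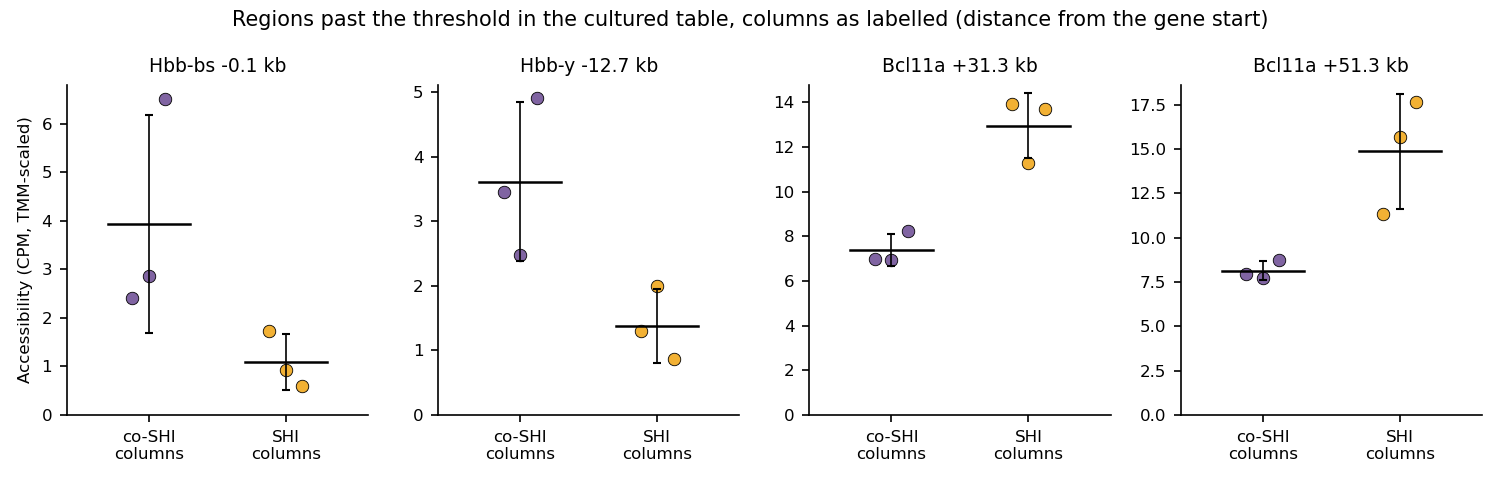
CPM (TMM-scaled, y axis) of the 4 called member regions of the cultured table in the 3 columns labelled co-SHI and the 3 labelled SHI (x axis), with mean and SD. At the Hbb-bs start and at Hbb-y -12.7 kb the columns labelled co-SHI are higher, at the 2 Bcl11a regions lower, without overlap in any panel.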

How the data were processed

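ATAC-seq had been made from 32 LSK samples, with 10 PCR cycles per the labels' protocols. Build mm10 and the tools Trim Galore, MACS2, DiffBind, deepTools and HOMER are named in the submitters' processing notes. The aligner, the treatment of reads with several matches, any Tn5 shift and duplicate removal could all change the values and are not given in the sources used here. The deposited tables hold raw counts per region, not scaled by the authors, in 99037 regions of 501 to 2971 bp and in 147852 regions of 501 to 3152 bp. The authors' peak lists, called per library, give a display score, a fold enrichment ratio, −log10 p and −log10 q values, and a summit offset, which was not used.

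Genes were 19982 named protein-coding genes of GRCm38.p6. The members and gene lists were chosen with earlier results of these data known. Regions were filtered with filterByExpr (minimum count 10) and scaled by TMM. Tests were two-sided quasi-likelihood tests in edgeR 4.0.16 (R 4.3.3), adjusted by Benjamini-Hochberg over all regions or genes, with a threshold of 0.05. The 26 developmental libraries shared a fit with 9 group means, and the 6 cultured libraries were fitted alone. The cultured table also has 3 columns of uncultured E12.5 FL cells, which entered no comparison. Groups came from sample titles. Counts were summed over the regions of each gene for gene sums, which were filtered and scaled by TMM apart from the regions, with library totals of their own. A prior count of 2 was added for log2 CPM. Shares were compared by exact permutation tests, with Wilson 95% intervals. Peaks were matched at 1 base of overlap.

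Regions were given in full where a comparison of groups called them, up to the 6 of smallest p over any group for a gene with more, or where they had the highest mean of their gene, and other called regions with fewer values. The 3 genes most like each member excluded predicted genes and those within 1 Mb. The regions of Nprl3, Hbq1a, Sh3pxd2b and Olfr67 and the +81.6 kb region of Bcl11a were named after their values were seen.

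Alternatives were DESeq2 1.42.0, its size factors in edgeR, total counts, cyclic loess offsets of limma 3.58.1 (span 0.3, 3 iterations), no filter, the compared groups alone, no E12.5 PL libraries, the replicate number as a block, each library left out, a window of 25 kb, all regions within 50 kb whichever gene is nearest, gene ends only, peaks with −log10 q of at least 5 and 50% overlap. Scripts were tested on simulated data. The Python tools (Python 3.11.15) were SciPy 1.17.1, numpy 2.4.6, pandas 2.3.3 and matplotlib 3.10.9.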

Additional observations from a re-analysis of the deposited data

Results flagged for a closer look

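The 3 columns of uncultured E12.5 FL cells in the cultured table, which entered no comparison, held counts at both regions of the adult gene Hbb-bs, a gene with no region in the developmental table. At chr7:103827711-103828250, over the Hbb-bs start, they had 23, 36 and 25 counts, a mean of 1.53 CPM of column totals. On that scale the mean was 3.88 CPM in the columns labelled co-SHI and 1.08 CPM in those labelled SHI. At chr7:103829390-103829894, upstream of the gene, they had 22, 46 and 17 counts, a mean of 1.5 CPM. Both means are low and rest on few counts, which do not show by themselves that the regions were open. No test was made on these columns.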

How the results depend on the processing

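The 15 calls in E12.5 FL over E12.5 PL became 9 under cyclic loess offsets. They became 24 in the wider set, all 47 regions within 50 kb whichever gene is nearest. The 3 calls in perinatal BM over E16.5 FL became 1 under total counts, 0 under loess and 1 with the groups alone. The 3 calls in 8w BM over E12.5 FL became 0 under total counts. The 7 in BM over FL became 1 under loess and 16 in the wider set. The wider counts mix directions. In BM over FL the 20 regions near the α-globin genes added 2 called higher and 7 lower, where 20% of all regions were called higher and 19.9% lower. In E12.5 FL over E12.5 PL they added 2 higher and 6 lower, where 23.1% of all regions were called higher and 26.4% lower. The 4 calls between the cultured columns became 2 under DESeq2, which gave no adjusted p for the other 2, at Hbb-bs and Hbb-y. Over any group the 16 calls became 9 without the E12.5 PL libraries and 27 in the wider set. Leaving out 1 library gave 1 to 3 calls in 8w BM over E12.5 FL, 1 to 3 in perinatal BM over E16.5 FL, 0 to 2 between the cultured columns and 11 to 14 in E12.5 FL over E12.5 PL. The cause of these changes was not tested, except that the wider set holds more regions. Direction was reversed under loess for BM over FL at Bcl11a -2.9 kb (-0.0090) and +0.6 kb (-0.12) and for the sums of Bcl11a (-0.026) and Hbb-bt (0.077), for the Bcl11a sum in 8w BM over E12.5 FL (-0.071) and for the Hbb-y sum in E16.5 over E12.5 FL (-0.0085). With gene ends only it was reversed for the Hbb-bt sum in 8w BM over E12.5 FL (0.13) and BM over FL (0.016), and for the Bcl11a sum in 1w over perinatal BM (-0.025) and between the cultured columns (0.038). None of these reversed values was called. Leaving out a library moved the log2 fold change of sums from -0.039 to 0.083 (Bcl11a, 8w over 1w BM), -0.18 to 0.33 (Hbb-bt, 1w over perinatal BM) and -0.13 to 0.14 (Hbb-y, E16.5 over E12.5 FL). It moved the Hbb-y share from -0.085 to 8.32 percentage points (8w over 1w BM), -1.12 to 4.71 (8w BM over E12.5 FL), -2.30 to 1.87 (BM over FL) and -7.01 to 0.55 (perinatal BM over E16.5 FL). The deviations of same-numbered libraries were weakly correlated at most (r of -0.10 to 0.17 over 100 pairs, 5 above 0.1). The highest r was that of replicate 2 in 4w and 8w BM. Such weak values cannot show whether the numbers pair libraries or whether some were handled together. With the replicate block the counts of calls were 15, 3, 3, 7, 16 and 4 in the comparisons above, as without it, and no named value changed its call. The share with only regions at or in the genes could not be formed. Depth limits the β-globin regions, at 61 to 456 counts per developmental library. The peak count was 246 region and library pairs, against 214 at −log10 q of at least 5 and 246 at 50% overlap.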

Other observations

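The uncultured columns of the cultured table also give levels at the member regions that the culture comparison called. They carry the names of the developmental E12.5 FL libraries, but the counts under these names differ between the 2 tables. E12.5 FL 1 had a total of 16097639 counts in the cultured table and 3968734 in the developmental table. At Bcl11a +119.8 kb it had 736 and 95 counts, in regions of slightly different bounds. The reason was not tested. On column totals, the Bcl11a +51.3 kb region had a mean of 8.13 CPM in the columns labelled co-SHI, 14.8 CPM in those labelled SHI and 5.45 CPM in the uncultured columns. The +31.3 kb region had 7.38 CPM in the columns labelled co-SHI, 12.9 CPM in those labelled SHI and 12.3 CPM in the uncultured columns. The Hbb-bt region over the end of the gene, at chr7:103812102-103812965, had 22.5 ± 2.69 CPM in the columns labelled co-SHI, 19.2 ± 3.24 CPM in those labelled SHI and 9.17 ± 1.87 CPM in the uncultured columns (SD, n = 3 each), and every cultured column was above every uncultured one. No test was made, and culture and any difference in preparation cannot be told apart here.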
